A study of Mus musculus with 10 samples.

Results

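The genes described here encode the subunits of oxidative phosphorylation, the 5 protein complexes of the inner mitochondrial membrane that turn the oxidation of fuel into ATP. Members were taken by gene symbol (the Nduf, Sdh, Uqcr, Cox4 to Cox8, Atp5 and mt-Nd, mt-Co, mt-Cytb and mt-Atp names, without names that end in -ps or that mark assembly factors) and by a mean raw count of at least 50 over the 4 libraries. The name pattern matched 106 genes, and 88 of them, out of 52636 gene identifiers in all, reached the minimum. Of the 88 members, 78 are nuclear genes and 10 are encoded in mitochondrial DNA. The members were chosen by symbol and selected on their mean count, and the group was proposed with measured results of these same libraries known, so its differences between genotypes are given as a description of the members.

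Mouse E14 embryonic stem cells, a line derived from a blastocyst, were either unmodified (WT) or carried CBE-KO, the deletion of a CTCF binding element. Both genotypes were replated in medium without LIF and 2i and with retinoic acid (RA) at a stated 2 µM, and gene expression was read by RNA-seq at 24 h, with 2 libraries per genotype. No untreated library is among the 4, so every value describes RA-treated cells. The labels do not say how many CBE-KO clones were used, and 6 Capture-C samples were not analysed here.

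Complexes I and II feed electrons from NADH and succinate into ubiquinone, complex III passes them to cytochrome c, and complex IV hands them to oxygen. Complexes I, III and IV pump protons as they do so, and complex V, the ATP synthase, uses the returning protons to make ATP. Complexes I, III, IV and V are built from the products of both genomes: a core of hydrophobic proteins comes from mitochondrial DNA, and most subunits and all of complex II come from nuclear genes. Pluripotent stem cells are known for heavy use of glycolysis, and differentiation is commonly accompanied by growth of respiratory capacity.

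The libraries held 14108038 to 15632960 counts assigned to genes. The 2 genotypes differed widely: edgeR's quasi-likelihood test called 6895 of 16005 tested genes at an adjusted p under 0.05, which is 43.1%. In bulk RNA, fewer cells of a type and less RNA per cell cannot be told apart. Before any member is read, one feature sets the genotypes apart: the Y-linked genes Ddx3y, Eif2s3y, Uty and Uba1y summed to 0.873 to 1.23 CPM (counts scaled to a common library size) in the WT libraries and to 149 to 159 CPM in the CBE-KO libraries. A difference between the cell populations that goes with this and the deletion itself cannot be told apart in the results that follow. The 8 embryonic stem cell markers summed to 4488 to 4680.3 CPM in WT and 3399 to 3439 CPM in CBE-KO, and 6 of the 8 fell while 1 rose. The 8 fibroblast or feeder markers summed to 24.7 to 27.8 CPM in WT and 40.2 to 42.5 CPM in CBE-KO, with Postn, Lum and Dcn at 0. The 8 extraembryonic endoderm markers summed to 73.8 to 76.1 CPM in WT and 86.3 to 88.9 CPM in CBE-KO, and the 6 neuroectoderm markers to 24.1 to 24.2 and 31.1 to 31.5 CPM. Of those tested, 2 of 3 fibroblast, 3 of 6 endoderm and 3 of 4 neuroectoderm markers rose. The 4 neuroectoderm markers tested had log2 fold changes from -0.31 to 3.59, with a median of 1.27. This median of single genes is not the change of the summed CPM given above. The 6 mesoderm markers stood at 5.45 to 5.82 CPM in WT and 6.74 to 6.90 CPM in CBE-KO, and the 4 trophoblast markers at 4.04 to 4.07 and 2.65 to 2.68 CPM. Of the mesoderm markers tested, 1 of 5 rose. The part of these marker differences in the members' values was not tested.

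As a group, the subunit genes differed between CBE-KO and WT by small amounts. More of those called were lower than higher under edgeR's default scaling, and the reverse held when libraries were scaled by their totals. CPM were computed on effective library sizes from TMM (edgeR's trimmed mean of log ratios). Every log2 fold change is CBE-KO over WT, and a value after ± is its approximate standard error (SE) unless marked SD. This SE is the absolute log2 fold change divided by the square root of the F statistic of edgeR's test. All 88 members entered the fit, and 37 of them (42.0%) were called at an edgeR adjusted p under 0.05, against 43.1% of all tested genes and 49.6% of the 11927 tested genes that share the members' mean count of at least 50. The number of called members is thus near the background. By direction, 8 members rose, beside 21.6% of all tested genes, and 29 fell, beside 21.5%. In 53 members the libraries of the 2 genotypes did not overlap, which was so for 70.4% of tested genes. The members' median absolute log2 fold change was 0.13 and that of all tested genes 0.28. One member, Uqcrc1, had an absolute log2 fold change above 1, and it rested on a single library, as described with complex III. With DESeq2, 28 members were called, 3 higher and 25 lower, where 28.6% of all tested genes were called.

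**Figure D1:**
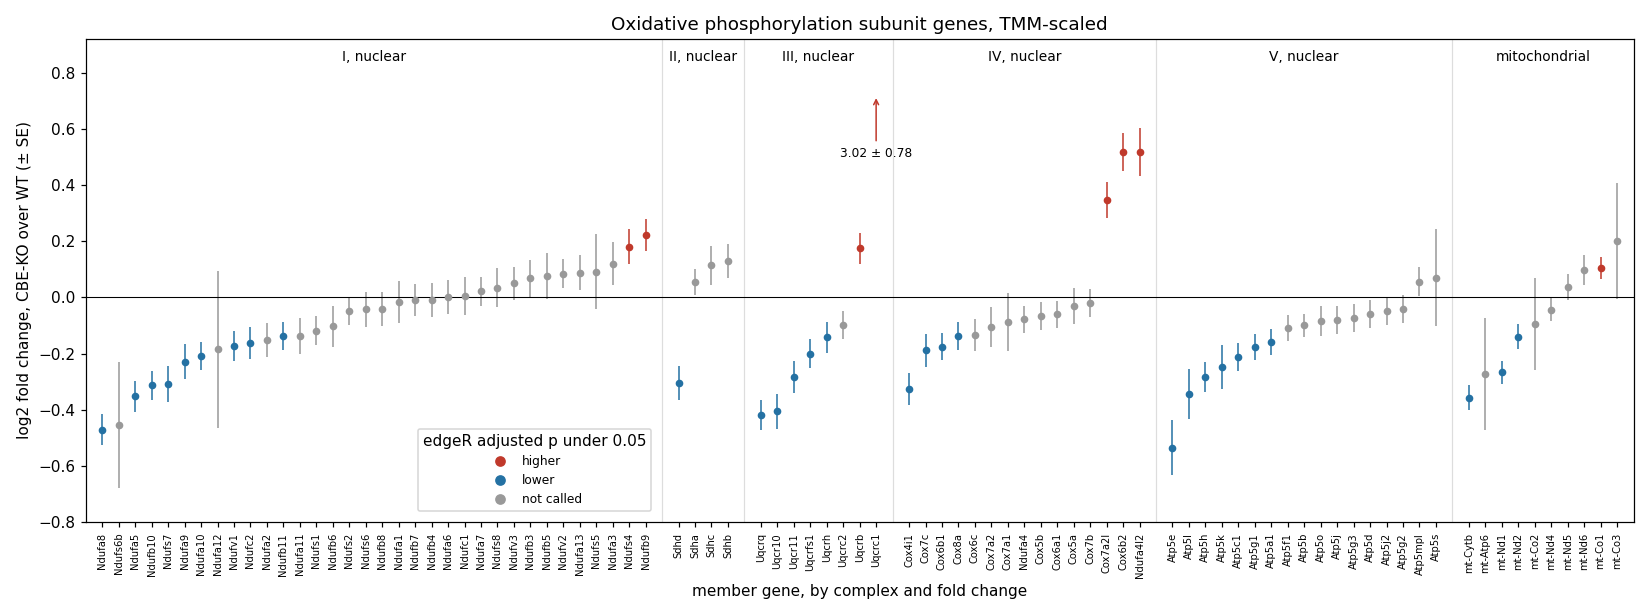
Log2 fold change of CBE-KO over WT (y axis, points, with bars of 1 SE) for each of the 88 members (x axis), ordered within complex, with members called by edgeR at an adjusted p under 0.05 in red (higher) or blue (lower). Most members lie within 0.5 of 0, the lowest is Atp5e at -0.53, and Uqcrc1 at 3.02 ± 0.78 is drawn as an arrow because it lies beyond the axis.

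The direction of the group depended on how the libraries were scaled. Under TMM the 78 nuclear members had a median log2 fold change of -0.08, with 7 called higher and 26 lower. When the libraries were scaled by their total counts alone, the median became 0.02, with 16 called higher and 12 lower. The 10 mitochondrial members shifted likewise, from a median of -0.07 with 1 higher and 3 lower to a median of 0.04 with 3 higher and 2 lower. Library totals also shifted the median of all tested genes from 0.01 to 0.11, and raised the share of all called genes that were higher from 50.2% to 66.9%. They called 4764 of the 16005 tested genes higher and 2355 lower, the background for every count given here with library totals. Of the 88 members 19 were then higher and 14 lower. The share higher among the called members was 57.6%, under the 66.9% of all called genes. Relative to the median of all tested genes, the median of the 88 members was -0.09 under TMM, median of ratios, upper quartile and library totals alike. Complexes I, IV and V and the mitochondrial members changed the sign of their median between TMM and library totals. Complex III stayed below 0 and complex II above 0 under all 4 scalings.

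**Figure D2:**
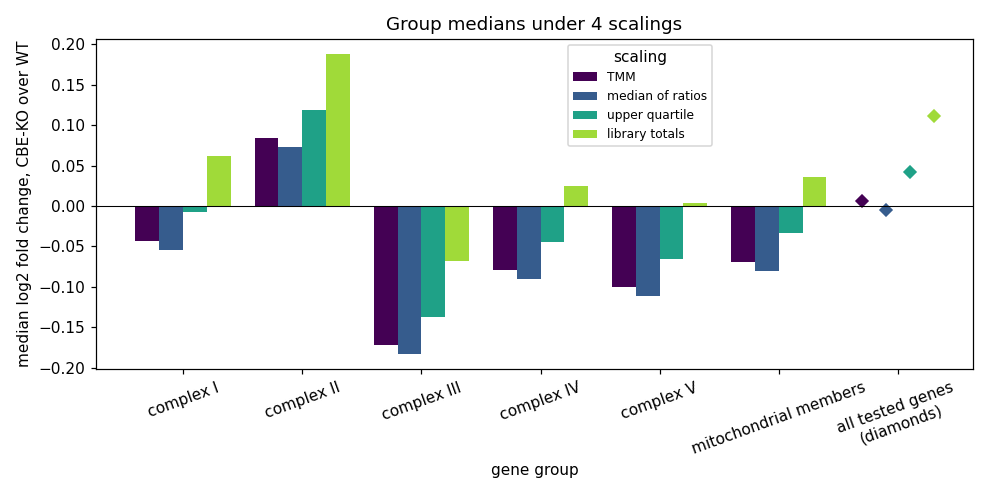
Median log2 fold change of CBE-KO over WT (y axis) for the nuclear members of each complex and the mitochondrial members (x axis) under 4 scalings (bar colours), with the median of all tested genes as diamonds. The bars of complexes I, IV and V and of the mitochondrial members cross 0 when library totals are used, where the diamond stands at 0.11.

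A set of 16 members was called in the same direction under TMM, median of ratios, upper quartile, library totals with and without mitochondrial genes, and by DESeq2. The share of all tested genes that passes these settings together was not computed. The number of such members is therefore given without a background and is not read as a result about the group. Those that rose are the nuclear genes Cox6b2, Cox7a2l and Ndufa4l2. All are counted here with complex IV, but Ndufa4l2 has a complex I name and was placed there together with Ndufa4. Those that fell are Ndufa5, Ndufa8, Ndufb10 and Ndufs7 of complex I, Sdhd of complex II, Uqcrq, Uqcr10 and Uqcr11 of complex III, Cox4i1 of complex IV, Atp5h and Atp5l of complex V, and the mitochondrial mt-Nd1 and mt-Cytb.

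**Figure D3:**
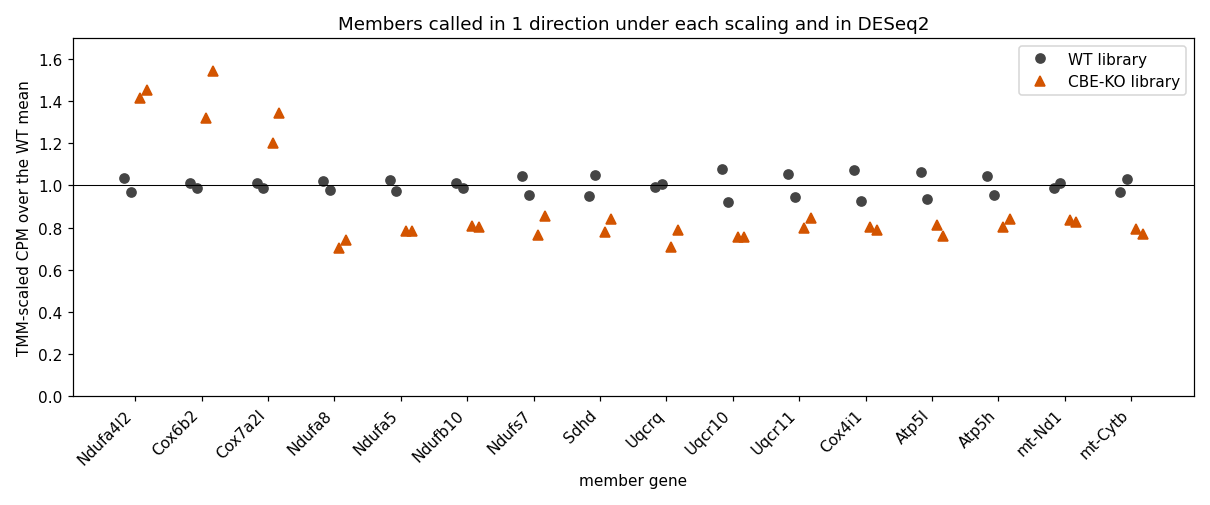
CPM in each library relative to the gene's WT mean (y axis) for the 16 members called in 1 direction under every scaling and by DESeq2 (x axis), with points for the 2 WT and the 2 CBE-KO libraries. The libraries of the 2 genotypes stand apart in each of the 16, with CBE-KO above WT for Cox6b2, Cox7a2l and Ndufa4l2 and below it for the other genes. The 16 were chosen by calls in these same libraries, so their separation adds no support. Libraries of the genotypes did not overlap in 70.4% of all tested genes.

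Complex I is the entry point for electrons from NADH, with a matrix arm that carries flavin and iron-sulfur clusters and a membrane arm that pumps protons. Of its 34 nuclear members 9 fell and 2 rose under TMM (4 and 7 with library totals), a share called of 32.4% beside 43.1% of all tested genes, with 21.5% lower and 21.6% higher, and the median log2 fold change was -0.04. Ndufa8, an accessory subunit on the intermembrane side, was measured at 116 and 111 CPM in WT and 79.7 and 83.8 CPM in CBE-KO. The libraries did not overlap, and its log2 fold change of -0.47 ± 0.06 (adjusted p = 2.63e-06) was the lowest in the complex. Ndufa5, an accessory subunit of the matrix arm, stood at 112 and 106 CPM in WT and 85.2 and 85.5 CPM in CBE-KO (-0.35 ± 0.05, adjusted p = 4.98e-05). Ndufb10, an accessory subunit of the membrane arm, was at 127 and 124 CPM in WT and 101 and 101 CPM in CBE-KO (-0.31 ± 0.05, adjusted p = 8.55e-05). Both CBE-KO libraries lay below both WT libraries in each of these genes, where 70.4% of all tested genes had no overlap in either direction.

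Core subunits of the matrix arm were among those that fell. Ndufs7, which holds the last iron-sulfur cluster before ubiquinone, was at 117 and 107 CPM in WT and 85.5 and 95.6 CPM in CBE-KO, with a log2 fold change of -0.31 ± 0.06 (adjusted p = 0.000708). Ndufv1, which binds NADH and flavin and drew the most reads of the complex's nuclear genes, was at 204 and 201 CPM in WT and 169.9 and 189.7 CPM in CBE-KO (-0.17 ± 0.05, adjusted p = 0.0159). The other genes of complex I that fell were Ndufa9 (-0.23), Ndufa10 (-0.21), Ndufc2 (-0.16) and Ndufb11 (-0.14), all accessory subunits. With library totals the values of Ndufv1 and of these 4 genes stayed below 0 and were not called. Ndufc2 and Ndufb11 were also not called by DESeq2 (adjusted p = 0.124 and 0.124) or with upper quartile scaling (adjusted p = 0.0808 and 0.107), nor was Ndufb11 with the replicate number as a block (adjusted p = 0.0508). The pair that rose were also accessory: Ndufb9 of the membrane arm was at 77.1 and 74.8 CPM in WT and 88.3 and 88.8 CPM in CBE-KO (0.22 ± 0.06, adjusted p = 0.00404), and Ndufs4 of the matrix arm, a gene mutated in Leigh syndrome, was at 104 and 90.4 CPM in WT and 107 and 113 CPM in CBE-KO (0.18 ± 0.06, adjusted p = 0.0276). DESeq2 gave adjusted p-values of 0.0529 for Ndufb9 and 0.147 for Ndufs4, past the threshold for neither.

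A second accessory subunit of the matrix arm, Ndufa12, separated the libraries by replicate and not by genotype. Its raw counts were 1238 and 461 in WT and 1117 and 509 in CBE-KO, so that the first library of each genotype held more than the second, by 2.53-fold in WT and 1.97-fold in CBE-KO after scaling. The log2 fold change was -0.19 ± 0.28 (adjusted p = 0.632). Ndufs3, a core subunit of the matrix arm, is listed with counts of 0 and 0 in WT and 1 and 0 in CBE-KO, which is under the minimum, and no change of Ndufs3 is read here.

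Complex II, succinate dehydrogenase, also belongs to the citric acid cycle and is the complex with no mitochondrially encoded subunit. Of its 4 genes, 1 fell and none rose by edgeR under TMM, while with library totals 1 fell and 3 rose. With 4 genes, 25.0% called under TMM is read against the same 43.1%. With library totals 4764 of the 16005 tested genes rose and 2355 fell. DESeq2 also called 0 higher, and 1 was higher at an unadjusted p under 0.05. Sdhd, one of the membrane anchors, was at 112 and 124 CPM in WT and 91.8 and 99.1 CPM in CBE-KO, without overlap, and fell by 0.30 ± 0.06 on the log2 scale (adjusted p = 0.000476). Sdha, the flavoprotein that oxidizes succinate, was at 300.0 and 309.8 CPM in WT and 318 and 315 CPM in CBE-KO (0.05 ± 0.05, adjusted p = 0.381). Sdhb, the iron-sulfur subunit, differed by 0.13 ± 0.06 on the log2 scale (adjusted p = 0.0947) and Sdhc, the other anchor, 0.11 ± 0.07 (adjusted p = 0.205), so these 3 genes were not called under TMM. The complex held 3.97% ± 0.136 (SD, n = 2) of nuclear member counts in WT and 4.32% ± 0.141 in CBE-KO.

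Complex III, the cytochrome bc1 complex, had the lowest median log2 fold change of the 5, at -0.17, and 7 of its 8 nuclear members were called under TMM, 5 lower and 2 higher (3 and 2 with library totals). That is 87.5% of 8 genes, beside 43.1% of all tested genes and 49.6% of those with a mean count of at least 50. With DESeq2 it was 4 genes, or 50.0%, beside 28.6%. Small accessory subunits led. Uqcrq was at 286 and 289 CPM in WT and 204 and 227 CPM in CBE-KO, with a log2 fold change of -0.42 ± 0.05 (adjusted p = 6.3e-06). Uqcr10 was at 161 and 137 CPM in WT and 113 and 112 CPM in CBE-KO (-0.41 ± 0.06, adjusted p = 5.03e-05). For Uqcr11 the libraries held 167 and 149 CPM in WT and 126 and 134 CPM in CBE-KO (-0.28 ± 0.06, adjusted p = 0.000661). In all 3 genes both CBE-KO libraries lay below both WT libraries, where 70.4% of all tested genes had no overlap in either direction.

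The catalytic Rieske iron-sulfur subunit Uqcrfs1 fell by 0.20 ± 0.05 on the log2 scale (adjusted p = 0.00421), and the hinge protein Uqcrh fell by 0.14 (adjusted p = 0.0435). Neither was called with library totals, and Uqcrh was called neither by DESeq2 (adjusted p = 0.14) nor with upper quartile scaling (adjusted p = 0.117) nor with the replicate number as a block (adjusted p = 0.0506). Uqcrb, a small matrix-side subunit, went the other way, at 92.6 and 87.0 CPM in WT and 102 and 101 CPM in CBE-KO (0.18 ± 0.06, adjusted p = 0.0163; DESeq2 0.134). The core protein Uqcrc2, at -0.10, was the member of the complex that was not called.

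The partner core protein Uqcrc1 shows a single deviating library. Its raw counts were 78 and 46 in WT and 52 and 1002 in CBE-KO, so 3 libraries stood at 3.20 to 5.34 CPM and the second CBE-KO library at 68.9 CPM, 21.5-fold above its replicate. The genotypes overlap. The fitted log2 fold change of 3.02 ± 0.78 was called by edgeR (adjusted p = 0.00434), but not with robust moderation of the dispersions (adjusted p = 0.407) or by DESeq2 (adjusted p = 0.17). Without that library it was -0.44, the opposite sign. Leaving Uqcrc1 and Ndufa12 out, a choice made after seeing the data, 6 nuclear members rose and 26 fell.

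Complex IV, cytochrome c oxidase, contains several subunits that exist as alternative isoforms, and its 15 nuclear members included 3 that rose and 4 that fell under TMM, and with library totals 3 that rose and 1 that fell. Under TMM 46.7% were called, beside 43.1% of all tested genes. The isoforms of a subunit are given side by side. Cox6b2, known as the testis isoform of the subunit that faces cytochrome c, was at 74.3 and 72.8 CPM in WT and 97.2 and 114 CPM in CBE-KO, and rose by 0.52 ± 0.07 on the log2 scale (adjusted p = 8.62e-06). Its common counterpart Cox6b1 was at 226 and 216 CPM in WT and 194 and 197 CPM in CBE-KO and fell (-0.18 ± 0.05, adjusted p = 0.00671). Neither gene overlapped between genotypes, as was so for 70.4% of all tested genes. With library totals Cox6b1 was not called by edgeR (adjusted p = 0.243). Of the counts of this pair, uncorrected for length, Cox6b2 took 25.0% ± 0.278 (SD, n = 2) in WT and 35.0% ± 2.28 in CBE-KO.

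Ndufa4l2, a paralogue of Ndufa4 known for its induction in hypoxia, was at 25.2 and 23.6 CPM in WT and 34.4 and 35.5 CPM in CBE-KO (0.52 ± 0.09, adjusted p = 9.58e-05). Ndufa4, once assigned to complex I and counted here with complex IV, was at 229.5 and 227 CPM in WT and 214 and 218 CPM in CBE-KO and was not called (-0.08 ± 0.05, adjusted p = 0.195). The share of Ndufa4l2 in the counts of its pair was 9.65% ± 0.333 (SD, n = 2) in WT and 13.9% ± 0.0875 in CBE-KO. Cox7a2l, which links complexes III and IV into supercomplexes, was at 69.4 and 67.7 CPM in WT and 82.3 and 92.2 CPM in CBE-KO (0.35 ± 0.06, adjusted p = 0.000294). The related Cox7a1 (-0.09, adjusted p = 0.524) and Cox7a2 (-0.11, adjusted p = 0.244) were not called.

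Among the subunits of complex IV that fell, Cox4i1, the common isoform of subunit 4, was at 466 and 402 CPM in WT and 349 and 343 CPM in CBE-KO, with a log2 fold change of -0.33 ± 0.06 (adjusted p = 0.000201) and no overlap. Cox7c (-0.19, adjusted p = 0.015; DESeq2 0.186) and Cox8a (-0.14, adjusted p = 0.031) were the others besides Cox6b1, and neither was called with library totals, nor Cox8a with upper quartile scaling (adjusted p = 0.0937). Cox6a1, which drew the most reads of the nuclear complex IV genes, was at 658 and 632 CPM in WT and 593 and 643 CPM in CBE-KO and was not called (-0.06, adjusted p = 0.343), and Cox7b was not called either (-0.02, adjusted p = 0.793).

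Complex V joins a catalytic head, a rotating central stalk and ring, and a peripheral stalk that holds the head still. None of its 17 nuclear members rose by edgeR under TMM, and 7 fell (1 and 3 with library totals), with a median log2 fold change of -0.10. The share called was 41.2%, beside 43.1% of all tested genes. DESeq2 called 0 higher as well, and 0 were higher at an unadjusted p under 0.05. Atp5e, the epsilon subunit at the foot of the central stalk, was at 127 and 91.5 CPM in WT and 73.7 and 77.3 CPM in CBE-KO (-0.53 ± 0.10, adjusted p = 0.000281). Its first WT library was the highest of the 4 by a wide margin, and the call was not made with robust moderation (adjusted p = 0.225) or by DESeq2 (adjusted p = 0.0676). Atp5l, a small membrane subunit (g), was at 36.8 and 32.4 CPM in WT and 28.2 and 26.3 CPM in CBE-KO (-0.34 ± 0.09, adjusted p = 0.0046). Atp5h, subunit d of the peripheral stalk, was at 227 and 207 CPM in WT and 174 and 183 CPM in CBE-KO (-0.28 ± 0.05, adjusted p = 0.000374). The genotypes did not overlap in any of these 3 genes, as was so for 70.4% of all tested genes.

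The remaining genes of complex V that fell were Atp5k (-0.25, a membrane subunit), Atp5c1 (-0.21, the gamma subunit of the stalk), Atp5a1 (-0.16, the alpha subunit of the head) and Atp5g1, none of them called with library totals. Atp5k, at 108 and 86.1 CPM in WT and 81.9 and 82.2 CPM in CBE-KO, was also not called with robust moderation (adjusted p = 0.0732). Atp5b, the catalytic beta subunit and the member of complex V that drew the most reads, was at 2878 and 2872 CPM in WT and 2670.5 and 2697 CPM in CBE-KO (-0.10 ± 0.04, adjusted p = 0.0564), while DESeq2 gave an adjusted p of 0.0305. Atp5g1, Atp5g2 and Atp5g3 encode the same mature ring subunit with different import sequences. Atp5g1 was at 225 and 230.1 CPM in WT and 199 and 204 CPM in CBE-KO and fell (-0.18 ± 0.05, adjusted p = 0.00606), Atp5g2 differed by -0.04 on the log2 scale (adjusted p = 0.535) and Atp5g3 by -0.07 (adjusted p = 0.256). Atp5g1 took 27.6% ± 1.41 (SD, n = 2) of the counts of the 3 genes in WT and 26.0% ± 0.324 in CBE-KO, a difference close to the SD in WT.

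The mitochondrial genome encodes 13 proteins, all of them subunits of complexes I, III, IV and V, and transcribes them from long precursors that are cut into individual RNAs. The 10 members differed from one another, and 4 of the 10 were called, beside 43.1% of all tested genes. mt-Cytb, the cytochrome b of complex III, was at 2747 and 2926 CPM in WT and 2250.0 and 2177 CPM in CBE-KO, with a log2 fold change of -0.36 ± 0.04 (adjusted p = 4.86e-06). mt-Nd1 of complex I was at 3308 and 3379 CPM in WT and 2796 and 2761 CPM in CBE-KO (-0.27 ± 0.04, adjusted p = 4.48e-05). Both were lower in each CBE-KO library than in either WT library, where 70.4% of all tested genes had no overlap in either direction. mt-Nd2 also fell, by 0.14 ± 0.04 on the log2 scale (adjusted p = 0.0171), a call not made with library totals (adjusted p = 0.539) or upper quartile scaling (adjusted p = 0.0614).

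mt-Co1, the catalytic subunit of complex IV, was at 8185 and 8482 CPM in WT and 9135 and 8782 CPM in CBE-KO (0.10 ± 0.04, adjusted p = 0.043), again without overlap. That call was lost by DESeq2 (adjusted p = 0.102) and with median-of-ratios scaling (adjusted p = 0.0749). Within a library the ratio of mt-Co1 to mt-Cytb counts needs no scaling: it was 2.98 and 2.90 in WT and 4.06 and 4.03 in CBE-KO. The means were 2.94 ± 0.0576 (SD, n = 2) in WT and 4.05 ± 0.0184 in CBE-KO. The ratio divides the only mitochondrial member called higher under TMM by the one with the lowest log2 fold change. Its separation of the genotypes therefore restates those 2 results and adds no independent support. mt-Co1 made up 43.3% ± 0.0602 of the mitochondrial members' counts in WT and 48.2% ± 0.115 in CBE-KO, while mt-Cytb went from 14.7% ± 0.309 to 11.9% ± 0.0256 and mt-Nd1 from 17.4% ± 0.150 to 15.0% ± 0.249. The remaining genes of complex I were not called: mt-Nd4 had a log2 fold change of -0.04, mt-Nd5 of 0.04 and mt-Nd6 of 0.10.

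The sum of all mitochondrial members changed little beside the nuclear sum. Mitochondrial counts were 1.85% ± 0.0589 (SD, n = 2) of all counts in WT and 1.92% ± 0.0579 in CBE-KO. Nuclear member counts were 1.49% ± 0.0489 and 1.49% ± 0.0222. These shares rest on library totals. Under TMM the nuclear members summed to 15964 and 15072 CPM in WT and 14198 and 14595 CPM in CBE-KO. The mitochondrial members summed to 18934 and 19582 CPM in WT and 18907 and 18238 CPM in CBE-KO. The ratio of mitochondrial to nuclear member counts was 1.19 and 1.30 in WT and 1.33 and 1.25 in CBE-KO, so the genotypes overlapped. The mitochondrial ribosomal RNA gene mt-Rnr1, no member, had raw counts of 5035 and 4399 in WT and 3236 and 3072 in CBE-KO (log2 fold change -0.70 ± 0.05, adjusted p = 1.12e-08), whereas mt-Rnr2 was not called (0.00, adjusted p = 0.993).

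Coverage along the mitochondrial genome was very uneven. Per kilobase of gene, mt-Co2, mt-Atp8, mt-Atp6, mt-Co3, mt-Nd3 and mt-Nd4l, which follow each other on the genome, held 11.03 to 821 counts as means over the 4 libraries. The other 7 protein genes held 9684 to 82888 counts per kilobase, so the lowest of them was 11.8-fold above the highest of the block. The block contains 3 members. mt-Co2 had raw counts of 679 and 432 in WT and 724 and 410 in CBE-KO (-0.09 ± 0.16, adjusted p = 0.684), mt-Co3 of 201 and 149 in WT and 297 and 143 in CBE-KO (0.20 ± 0.21, adjusted p = 0.468) and mt-Atp6 of 209 and 133 in WT and 194 and 114 in CBE-KO (-0.27 ± 0.20, adjusted p = 0.288). In each of the 3 the first library of a genotype held more than the second, by over 1.5-fold in CBE-KO, and the genotypes were not separated.

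Nuclear copies of mitochondrial DNA exist in the mouse genome, and reads that match both places may be dropped or shared in counting. RefSeq (GRCm38.p6) lists the pseudogenes Gm10222 at chr1:24612404-24612700 and Gm10925 at chr1:24613971-24614651, with lengths of 297 and 681 bases, the lengths also listed for mt-Nd4l and mt-Atp6. Gm10222 had raw counts of 19 and 17 in WT and 17 and 11 in CBE-KO, and Gm10925 of 234 and 124 in WT and 227 and 92 in CBE-KO. Neither was called. Other genes taken here as such copies had no RefSeq position. Of these, Gm28438 had raw counts of 578 and 488 in WT and 386 and 380 in CBE-KO (-0.59 ± 0.09, adjusted p = 3.95e-05). Gm28437, Gm28439, Gm28661 and Gm29216 were not called. The part of such copies in the low counts of the block was not tested.

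**Figure D4:**
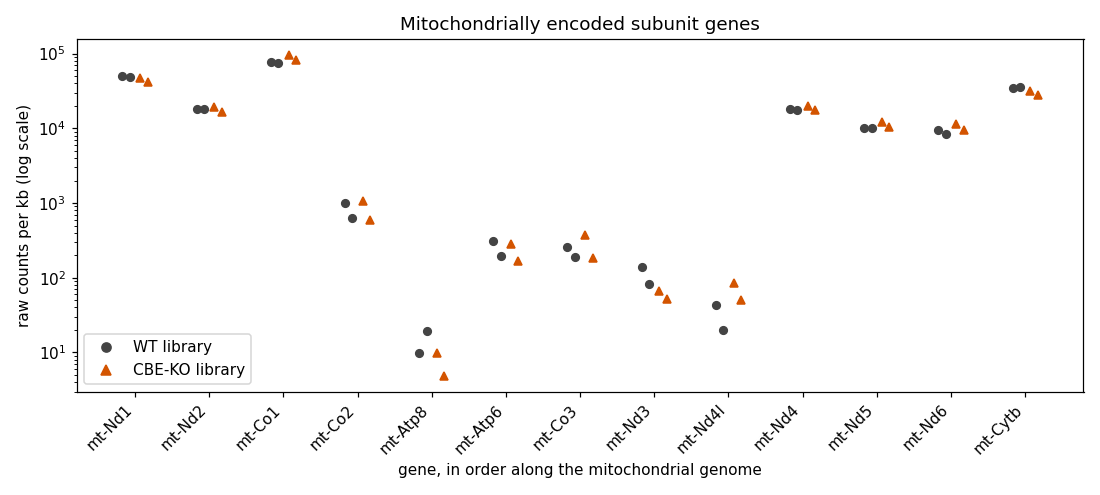
Raw counts per kilobase of gene (y axis, log scale) for the 13 mitochondrial protein genes in genome order (x axis), with points for the 2 WT and the 2 CBE-KO libraries. The 6 genes from mt-Co2 to mt-Nd4l lie at least 11.8-fold below the other 7 by their means over the 4 libraries.

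The promoters of nuclear subunit genes are known for sites of NRF1 and of the ETS factor GABPA, the classical regulators of respiratory genes. The 3 windows from RefSeq (GRCm38.p6) are printed because their genes had the largest rise or fall past the threshold among members whose replicates lay within 1.5-fold and whose windows are in the table. Each runs over 250 bases up to the base before the annotated start, 5′ to 3′ on the gene's strand, in lower case, with matches in capitals. The motifs searched were the short NRF1 motif TGCGCA, which reads the same on both strands, and, on both strands, the ETS core CCGGAAG and the longer NRF1 core CATGCGC. The last overlaps the short one where the next base is A. Cox6b2 (gene at chr7:4751792-4753094, minus strand) has the window chr7:4753095-4753344, Atp5e (chr2:174461075-174464101, minus strand) chr2:174464102-174464351, and Ndufa8 (chr2:36036324-36049338, minus strand) chr2:36049339-36049588.
Cox6b2: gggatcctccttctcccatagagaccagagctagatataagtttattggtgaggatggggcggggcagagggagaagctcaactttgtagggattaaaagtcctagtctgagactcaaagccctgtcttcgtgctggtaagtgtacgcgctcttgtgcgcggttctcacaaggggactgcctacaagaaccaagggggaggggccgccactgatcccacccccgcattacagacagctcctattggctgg
Atp5e: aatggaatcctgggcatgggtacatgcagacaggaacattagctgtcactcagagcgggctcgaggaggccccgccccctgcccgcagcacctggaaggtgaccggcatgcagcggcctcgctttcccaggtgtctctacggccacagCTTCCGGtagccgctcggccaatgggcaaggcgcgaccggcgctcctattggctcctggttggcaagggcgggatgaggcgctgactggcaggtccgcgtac
Ndufa8: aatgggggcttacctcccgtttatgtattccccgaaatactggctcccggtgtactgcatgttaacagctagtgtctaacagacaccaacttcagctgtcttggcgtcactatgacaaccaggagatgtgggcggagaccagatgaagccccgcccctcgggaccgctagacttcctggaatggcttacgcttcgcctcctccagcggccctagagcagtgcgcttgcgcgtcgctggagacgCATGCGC
The window of Cox6b2 holds none of the 3 motifs, that of Atp5e holds 1 ETS core and that of Ndufa8 1 longer NRF1 core. The next such gene by size of its fall, Uqcr10, also holds 0 matches of each in its 250 bases.

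Windows of 300 bases, which add 50 bases after the start, were found for 64 of the 78 nuclear members, 69 windows in all. TGCGCA was present in 27.5% of the member windows and in 7.76% of all 32851 windows of the table. CCGGAAG was present in 21.7% and 8.86%, and CATGCGC in 18.8% and 3.91%. By gene, TGCGCA was found in 6 of 23 members that fell, 1 of 4 that rose and 11 of 37 that were not called. CCGGAAG was found in 9 of 23, 0 of 4 and 6 of 37 in the same order, and CATGCGC in 4 of 23, 1 of 4 and 8 of 37. A match is a string of letters in the window, and differences between these classes were not tested.

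Genes around the complexes were taken from lists of their roles. Their shares called under TMM are read against 43.1% of all tested genes, with 21.5% lower and 21.6% higher. With library totals the counts are read against 4764 higher and 2355 lower of 16005 tested genes. Of 10 subunits and carriers outside the name rule, 4 fell and 1 rose under TMM, or 50.0% called (1 fell and 2 rose with library totals). The gene that rose under TMM was Dlst (0.30 ± 0.05), a citric acid cycle gene that is counted again in that list below. Slc25a4, the ADP/ATP carrier ANT1, was at 608 and 609 CPM in WT and 255 and 267 CPM in CBE-KO (-1.22 ± 0.05 on the log2 scale), a fall larger in size than that of any of the members that fell. Of 19 assembly factors for complex I, 4 fell and 1 rose under TMM, or 26.3% called (3 fell and 3 rose with library totals). Their median under TMM was -0.11, with Acad9 at -0.47, Dmac1 at -0.47 and Foxred1 at -0.40. Of 35 tested factors for complexes II to V, 12 fell and 2 rose (6 and 3 with library totals, median under TMM -0.10), with Coa6, which helps copper delivery to complex IV, at -0.76, Coa4 at -0.50 and Fmc1, a complex V factor, at 0.49.

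The proteins that copy, transcribe and translate the mitochondrial genome are themselves nuclear products. Of 77 tested mitochondrial ribosomal protein genes, 56 fell and 2 rose under TMM. That is 75.3% called, beside 43.1% of all tested genes, with a median log2 fold change of -0.28. Under library totals 37 fell and 4 rose. With DESeq2 46 fell and 1 rose, or 61.0% called, beside 28.6% of all tested genes. Mrps7 was at 114 and 113 CPM in WT and 64.8 and 64.8 CPM in CBE-KO (-0.81 ± 0.05) and Mrpl37 at 163 and 161 CPM in WT and 103 and 108 CPM in CBE-KO (-0.62 ± 0.05). Mrps23 had the lowest value of the list, -2.74 ± 0.44, but its WT libraries differed widely, with raw counts of 111 and 431 in WT and 51 and 38 in CBE-KO. Of 25 tested genes for mitochondrial DNA and RNA, 13 fell and 1 rose under TMM, or 56.0% called (10 fell and 3 rose with library totals). Their median under TMM was -0.26. The tRNA-processing nuclease Elac2 was at -0.75, the RNA-stability factor Tbrg4 at -0.52 and the DNA helicase Twnk at -0.46. The difference between these lists and the members was not tested.

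Among 11 tested regulators of nuclear mitochondrial genes, 4 fell and 1 rose (3 and 1 with library totals, median under TMM -0.04). That is 45.5% called under TMM, beside 43.1% of all tested genes. Myc, a growth regulator that is also a stem cell factor, was at 70.2 and 70.0 CPM in WT and 25.1 and 28.1 CPM in CBE-KO (-1.40 ± 0.08), without overlap. The coactivator gene Pprc1 had a log2 fold change of -0.29 and Gabpa of -0.24, while Nrf1 was not called (-0.01, adjusted p = 0.904). Ppargc1a, the coactivator PGC-1 alpha, had counts of 0 and 0 in WT and 1 and 0 in CBE-KO, too low to test. Of 16 citric acid cycle genes, 8 fell and 2 rose under TMM, or 62.5% called (5 fell and 5 rose with library totals). Dlst, named above, is 1 of the 2 that rose. The median under TMM was -0.15, with Pdha1 of the pyruvate dehydrogenase complex at -0.71, Sucla2 at -0.47 and Mdh2 at -0.45. Of 9 genes of the switch between glycolysis and lactate, 6 fell and none rose by edgeR under TMM, or 66.7% called. With library totals 3 fell and 1 rose. The median under TMM was -0.14, and Hk2 (-0.54), Ldhb (-0.42) and Ldha (-0.23) were among those that fell. In that list 0 genes were higher by DESeq2 or at an unadjusted p under 0.05.

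**Figure D5:**
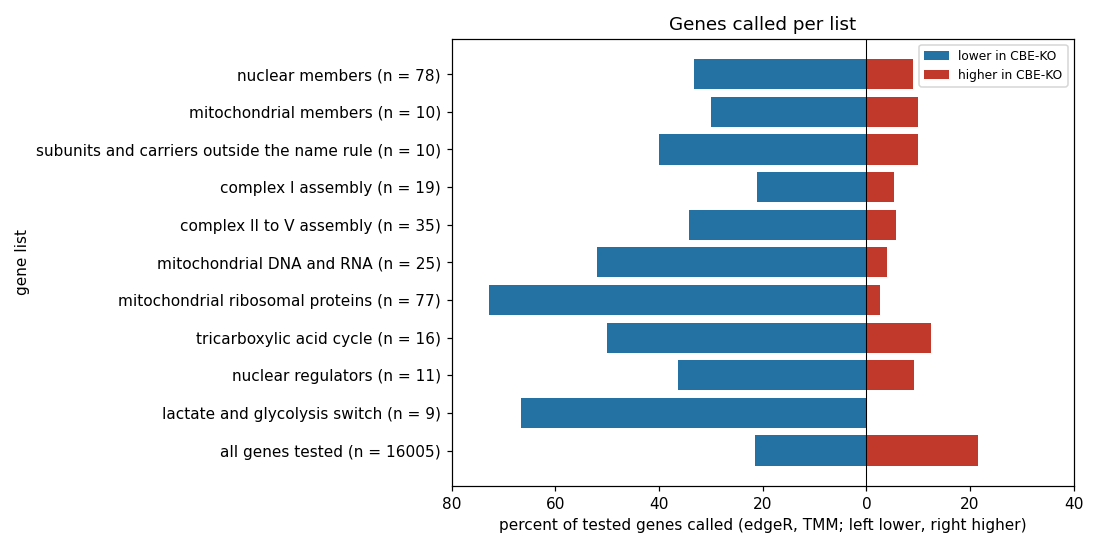
Share of tested genes called higher or lower by edgeR under TMM (x axis, percent) for the members and for 8 lists of related genes (y axis), with all tested genes for comparison. The mitochondrial ribosomal protein genes stand at 75.3% called, with 56 lower and 2 higher (37 and 4 with library totals), and the members at 42.0%, near the 43.1% of all tested genes.

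The count minimum decided the place of few genes. The member with the lowest mean count was Ndufs6b, at a mean of 59.5 and raw counts of 70 and 63 in WT and 51 and 54 in CBE-KO. RefSeq lists it as a pseudogene inside Slc28a1, a nucleoside transporter gene whose counts were 537 and 506 in WT and 332 and 346 in CBE-KO, and reads of the 2 cannot be told apart without strand. The highest gene under the minimum was Cox4i2, the alternative isoform of subunit 4, at a mean of 48.0 and raw counts of 45 and 44 in WT and 50 and 53 in CBE-KO (0.10, adjusted p = 0.791). Of the 18 genes under the minimum, 9 were tested, of which 1 rose and 1 fell. The testis isoform Cox7b2 had raw counts of 28 and 16 in WT and 44 and 48 in CBE-KO (0.95 ± 0.32, adjusted p = 0.0219; DESeq2 0.138), and mt-Nd3 of 48 and 29 in WT and 23 and 18 in CBE-KO (-1.02 ± 0.33, adjusted p = 0.0196; DESeq2 0.122). The tissue isoforms Cox6a2 (-0.60, adjusted p = 0.201) and Cox8c (-0.36, adjusted p = 0.502) were not called.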

How the data were processed

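RNA-seq was available for 4 libraries, WT and CBE-KO with 2 each, grouped by title. The deposited values are raw counts per Ensembl gene, unnormalized, as the values show; the labels name biological replicates for each condition. The submitters' processing notes name HISAT2 2.1.0, HTSeq 0.9.1, DESeq2 1.18.1, Bowtie2 2.3.1 and the build mm10, without saying which served the RNA-seq. Annotation release, use of strand and treatment of reads matching several places are not given in the sources used here, so overlapping genes and near-identical copies are uncertain.

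Symbols matched 52403 of 52636 identifiers. After filterByExpr, 16005 genes were tested with edgeR 4.0.16 in R 4.3.3 (glmQLFit and glmQLFTest, TMM, no covariate, two-sided, Benjamini-Hochberg adjustment over the 16005 genes, threshold 0.05). The script was tested on simulated data. The biological coefficient of variation was 5.18%, and 3 counts correspond to 0.185 to 0.218 CPM on scaled library sizes, which covers counting error only. Alternatives were DESeq2 1.42.0, other scalings, filters, robust moderation, a replicate block and leaving out each library.

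Members and lists were chosen with earlier results of these data known. Named genes were all mitochondrial members, up to 4 called per direction and the highest gene of each complex, isoform sets, genes beside the count minimum, and up to 3 called genes per list. Others named were chosen after their values were seen. Positions, lengths and promoters are from RefSeq, GRCm38.p6, by symbol. No protein sequences were used here. The names Coa1, Uqcc4, Uqcc5, Uqcc6 and Fastkd4 matched no symbol, so no gene entered the lists under these names.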

Additional observations from a re-analysis of the deposited data

How the results depend on the processing

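DESeq2 called 4577 genes in place of 6895. Scaling by library totals, with or without mitochondrial genes, left 12 nuclear members lower and 16 higher and 3 mitochondrial members higher. DESeq2 left 3 nuclear members higher. Called higher among the mitochondrial members were 0 with DESeq2, 0 with median of ratios, 0 at an adjusted p under 0.01 and 2 with upper quartile. Medians with library totals, then without mitochondrial genes in them, were 0.022 and 0.023 for nuclear members, 0.036 and 0.037 for mitochondrial members, 0.061 and 0.062 for complex I, 0.19 and 0.19 for complex II, -0.068 and -0.067 for complex III, 0.025 and 0.026 for complex IV and 0.0042 and 0.0050 for complex V. Upper quartile gave -0.047 for nuclear members, -0.034 for mitochondrial members, -0.0079 for complex I, 0.12 for complex II, -0.14 for complex III, -0.044 for complex IV and -0.065 for complex V.

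Leaving out 1 library at a time assumes that the lone library varies like the others. It gave 17 to 38 nuclear members lower and 4 to 10 higher, 2 to 5 mitochondrial members lower and 0 to 1 higher. These counts rest on a lone library in 1 genotype and are not read as a result about the members. Medians ranged from -0.14 to -0.038 for nuclear members and -0.22 to 0.037 for mitochondrial members. They ranged from -0.12 to 0.027 for complex I, 0.021 to 0.13 for complex II and -0.28 to -0.14 for complex III. For complex IV they ranged from -0.15 to -0.019 and for complex V from -0.14 to -0.073. The median of all tested genes ranged from 0.0010 to 0.019 in the same fits. The mitochondrial median was 0.018 without WT replicate 1 and 0.037 without CBE-KO replicate 2, and that of complex I 0.027 without WT replicate 1. Uqcrc1 ranged from -0.44 without CBE-KO replicate 2 to 3.98 without CBE-KO replicate 1. The cause of these shifts was not tested.

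The genotypes share replicate numbers only. Deviations of same-numbered libraries correlated at 0.035. With a replicate block 7027 genes were called, with 7 nuclear members higher and 24 lower and 1 mitochondrial member higher and 3 lower, and of the 88 members only Uqcrh (adjusted p = 0.0506) and Ndufb11 (adjusted p = 0.0508) changed side of edgeR's threshold. With 2 libraries per genotype and low counts in the block of mitochondrial genes, small differences there were not detectable.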
